A study of Homo sapiens with 12 samples.

Results

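The ERBB receptors EGFR, ERBB3 and ERBB4 and the EGF-family ligands EGF, AREG, EREG, HBEGF, TGFA, BTC and NRG1 are 10 of the 61533 genes in the total RNA data of 3 ovarian cell lines. They were listed by name as members of 1 ligand and receptor family. The list uses no measured value, but it was drawn up with earlier results of these data known. All 10 passed the filter on low counts that left 19898 genes. T1074 are ovarian epithelial cells, which the study describes as ovarian surface epithelium immortalised with SV40, PEO-4 is a high-grade serous carcinoma line derived from ascites after clinical resistance, and SKOV-3 is labelled as serous cystadenocarcinoma and called clear cell carcinoma by the study. Each line had 4 libraries, all labelled WT with no treatment, and each line was grown in its own medium with serum (Prigrow I for T1074, RPMI 1640 for PEO-4, McCoy's 5A for SKOV-3), so the medium and the line cannot be told apart. The study describes 4 replicates of cells per line for RNA extraction, but neither it nor the labels say that these were separate cultures. The p-values thus measure the spread between these libraries, which may be technical.

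The library totals ran from 19780836 to 55739060 expected counts, with T1074 replicate 1 the lowest, and protein-coding genes held 60.9% to 82.0% of them. T1074 replicate 1 held 65.4%. Of 7 epithelial markers, 5 in T1074 and all 7 in both carcinoma lines had a mean of at least 1 CPM (counts scaled to library size with TMM factors). The epithelial adhesion genes EPCAM and CDH1 were at 0.0964 ± 0.0360 and 0.354 ± 0.0830 CPM in T1074 (SD, n = 4), against 163 ± 4.31 and 148 ± 10.2 CPM in PEO-4 and 24.6 ± 3.24 and 25.9 ± 3.98 CPM in SKOV-3. The keratin KRT8 was at 616 ± 304 CPM in T1074, 584 ± 137 CPM in PEO-4 and 437 ± 88.0 CPM in SKOV-3. KRT18 was at 328 ± 161, 340 ± 72.1 and 150 ± 23.7 CPM in that order. KRT7, KRT19 and CLDN4 were lower in T1074 than in both carcinoma lines, at 157, 64.0 and 1.42 CPM. The summed level of 6 fibroblast and stroma markers was 192 to 856 CPM in T1074, mostly from COL1A1, against 0.761 to 1.87 CPM in PEO-4 and 8.96 to 40.7 CPM in SKOV-3. The 3 endothelial markers summed to at most 3.21 CPM in any library, and the 3 leukocyte markers summed to 7.39 to 16.8 CPM in T1074, 0.646 to 1.48 CPM in PEO-4 and 1.52 to 6.75 CPM over the SKOV-3 libraries, nearly all from CD68, with PTPRC and CD3E at or near 0. The 4 Mullerian and serous markers differed in direction. PAX8 had a mean of 106 ± 10.9 CPM in PEO-4 and 92.4 ± 10.7 CPM in SKOV-3 but only 0.0951 ± 0.0774 CPM in T1074. WT1 was highest in PEO-4 at 162 ± 17.0 CPM, against 22.6 CPM in T1074 and 0.943 CPM in SKOV-3. MUC16 was above 1 CPM in PEO-4 only, at 589 ± 45.9 CPM. SOX17 was highest in SKOV-3 at 76.1 ± 8.38 CPM, against 4.57 CPM in T1074 and 0.794 CPM in PEO-4. The 5 mesothelial and ovarian surface markers all had a mean of at least 1 CPM in T1074. In PEO-4, GATA4 and LHX9 were at 0 in all libraries, but the summed level of the list was highest there, at 451 to 567 CPM against 106 to 201 CPM in T1074 and 34.1 to 43.2 CPM in SKOV-3, mostly from MSLN. The part of these markers in the differences below was not tested. In bulk RNA, fewer cells that make a transcript and less of it per cell cannot be told apart.

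ERBB receptors are tyrosine kinases of the cell surface that pair with each other when a ligand binds, and signal through the RAS-ERK and PI3K-AKT routes. EGF, AREG and TGFA bind EGFR, whereas HBEGF, BTC and EREG can bind EGFR and ERBB4, and the neuregulin NRG1 binds ERBB3 and ERBB4. ERBB3 has little kinase activity of its own and relies on its partner, and ERBB2, the preferred partner, binds no known ligand. Most of these ligands are made as membrane proteins and are cut free by proteases of the ADAM family. In ovarian carcinoma, EGFR and its relatives are studied as drivers of growth and of drug resistance.

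The members lie on several chromosomes (GRCh38, GENCODE 44), and 3 of the ligands are neighbours on chromosome 4. EREG (chr4:74365145-74388749, plus strand) is followed after 56.4 kb by AREG (chr4:74445136-74455005, plus strand) and, 289.8 kb further on, by BTC (chr4:74744759-74794523, minus strand). The 250 bases before the transcript starts of AREG and EREG are shown because these neighbours differed in their order among the lines and yet shared the library in which they were highest in T1074. RefSeq promoter sequences (GRCh38.p14) matched 8 of the 10 members. The capitals mark the TATA box letters TATAAA and the cyclic AMP response element letters TGACGTCA, searched on both strands.
AREG promoter, chr4:74444886-74445135, plus strand: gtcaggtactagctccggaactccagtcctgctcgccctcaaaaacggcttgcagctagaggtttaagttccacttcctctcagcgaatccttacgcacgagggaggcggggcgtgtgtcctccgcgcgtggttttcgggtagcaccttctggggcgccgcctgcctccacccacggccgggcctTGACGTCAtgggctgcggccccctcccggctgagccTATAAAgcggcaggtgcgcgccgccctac
EREG promoter, chr4:74364895-74365144, plus strand: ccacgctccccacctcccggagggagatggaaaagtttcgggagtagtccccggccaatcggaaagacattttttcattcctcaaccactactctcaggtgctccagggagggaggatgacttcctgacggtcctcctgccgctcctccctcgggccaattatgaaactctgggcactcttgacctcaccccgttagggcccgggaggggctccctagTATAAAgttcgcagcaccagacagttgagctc
The TATA box letters began 29 bases before the start of AREG and 32 bases before that of EREG, and were present in 10.7% of 35116 promoter windows of the same length. The response element letters began 65 bases before the start of AREG and were not in the EREG window; they were present in 1.65% of all windows.

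Transcripts of ERBB4 and TGFA in these data also differ by short coding stretches. The transcripts ERBB4-202 and ERBB4-204 have coding sequences that differ by an exon of 48 bases, the exon of the CYT-1 form, which is known to hold a docking site for PI3K. The coding sequences of TGFA-201 (160 codons) and TGFA-203 (159 codons) differ by 3 bases at the start of an exon, in capitals here. The whole transcripts differ more, at 4117 and 1225 bases.
ERBB4 exon of ERBB4-202, chr2:211387945-211387992, minus strand: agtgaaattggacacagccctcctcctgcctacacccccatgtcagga
TGFA-201 exon start, chr2:70465707-70465736, minus strand: CAGacccgcccgtggctgcagcagtggtgt
TGFA-203 exon start, chr2:70465707-70465733, minus strand: acccgcccgtggctgcagcagtggtgt

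To ask how the family differed among the lines, genes were compared with the quasi-likelihood test of edgeR, with p-values adjusted over all genes tested and a threshold of 0.05. PEO-4 differed from T1074 in 9 of the 10 members, with 6 higher and 3 lower, where 74.1% of all genes passed, 36.3% as higher and 37.8% as lower. SKOV-3 also differed from T1074 in 9 members, 6 higher and 3 lower, where 67.8% of all genes passed, 33.3% as higher and 34.5% as lower. Between the carcinoma lines 8 members differed, 5 higher in PEO-4 and 3 higher in SKOV-3, where 75.2% of all genes passed, 38.5% as higher in PEO-4 and 36.7% as lower. Most genes thus passed in each comparison, and passing did not by itself set the members apart. The median log2 fold change of the members was 2.62 in PEO-4 and 1.19 in SKOV-3 against T1074, beside -0.01 and -0.03 over all genes, and 0.69 beside 0.05 in PEO-4 against SKOV-3. Without T1074 replicate 3, 10 members passed in PEO-4 and 9 in SKOV-3 against T1074. Without T1074 replicate 1, 2 or 4 the counts were 9 and 8. The comparisons with T1074 share the T1074 libraries.

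**Figure D1:**
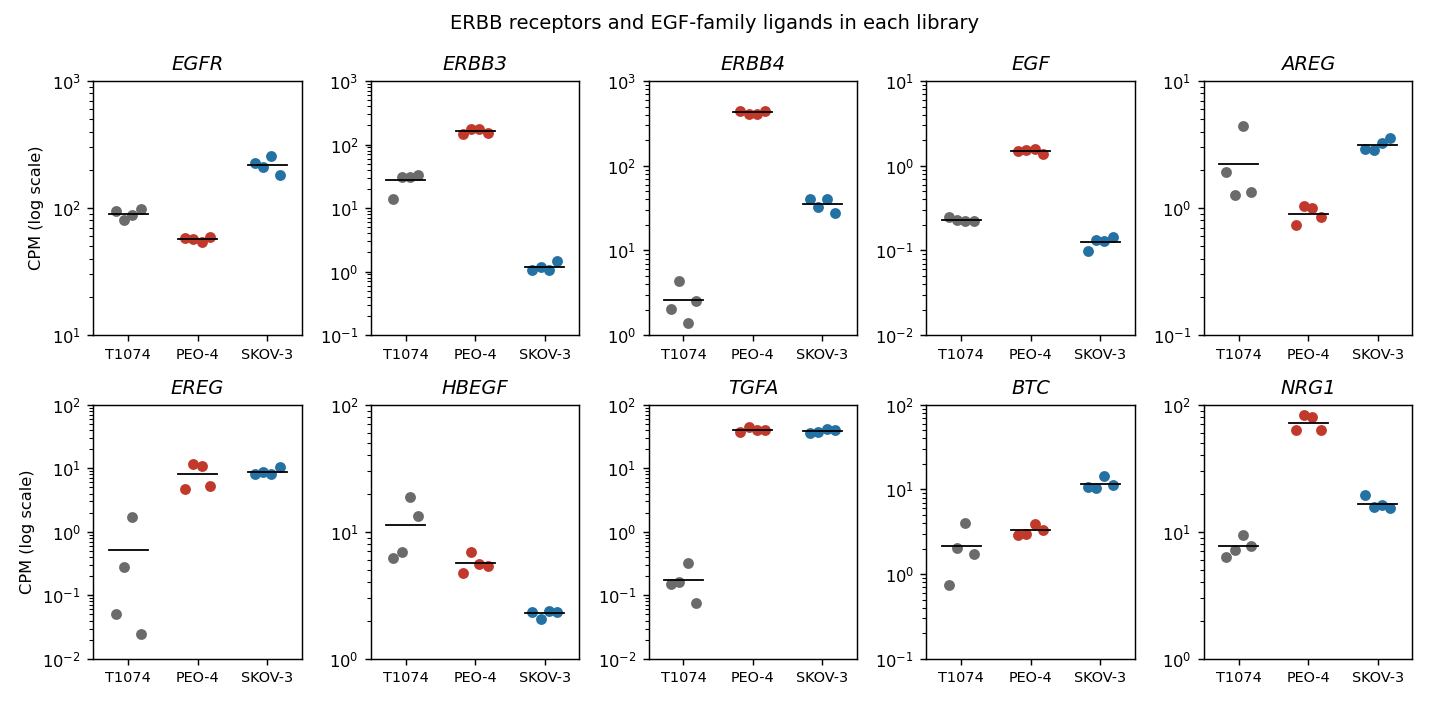
Each panel plots 1 gene, with CPM on a log axis and 1 point per library (4 in each line) and a bar at the mean. ERBB3 and ERBB4 are highest in PEO-4 and EGFR in SKOV-3, TGFA is at 37.7 to 43.9 CPM in PEO-4 and 35.9 to 41.6 CPM in SKOV-3, and the 4 T1074 points of EREG run from 0.0249 to 1.69 CPM.

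The libraries of the 3 lines did not overlap in any of the 3 receptors. The share of all genes without overlap was not counted. Of the 34 other pathway genes tested below, 25 had no overlap in PEO-4 against T1074, 19 in SKOV-3 against T1074 and 29 in PEO-4 against SKOV-3. Lack of overlap was thus common. EGFR (chr7:55019017-55211628), the receptor of EGF, TGFA and AREG, was at 95.3, 80.5, 88.8 and 97.5 CPM in T1074 replicates 1 to 4. In PEO-4 the EGFR values were 58.3, 57.3, 53.8 and 59.2 CPM, and in SKOV-3 226, 211, 257 and 182 CPM. SKOV-3 was thus highest and PEO-4 lowest in every library. EGFR was upregulated 2.42-fold in SKOV-3 against T1074 (log2 fold change 1.27 ± 0.11 SE, adjusted p = 1.62e-07) and was 1.59-fold lower in PEO-4 (-0.66 ± 0.11, adjusted p = 7.88e-05). The carcinoma lines differed from each other by 3.83-fold (-1.94 ± 0.11, adjusted p = 1.82e-09).

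ERBB3 (chr12:56076799-56103505), the neuregulin receptor with little kinase activity, moved in opposite directions in the carcinoma lines. Its level was 14.1, 30.8, 31.1 and 33.2 CPM in the T1074 libraries, 145, 174, 176 and 150 CPM in PEO-4, and 1.05, 1.19, 1.07 and 1.46 CPM in SKOV-3. T1074 replicate 1, the library of lowest depth, stood below the other T1074 libraries but above all of SKOV-3. ERBB3 was 5.91-fold higher in PEO-4 than in T1074 (log2 fold change 2.56 ± 0.21, adjusted p = 6.84e-08) and 22.9-fold lower in SKOV-3 (-4.52 ± 0.25, adjusted p = 1.29e-09). PEO-4 exceeded SKOV-3 by 135-fold (7.08 ± 0.27, adjusted p = 2.81e-11). With counts made from length-scaled TPM, which account for the transcripts used, the difference of SKOV-3 from T1074 was -3.58 and that of PEO-4 from SKOV-3 was 6.05.

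ERBB4 (chr2:211375717-212538841), the other neuregulin receptor, was the highest of the 10 members in PEO-4 on the TPM scale given below. The T1074 libraries held 2.06, 4.399, 1.40 and 2.51 CPM, from 41 to 192 expected counts. PEO-4 held 445, 405, 409 and 446 CPM and SKOV-3 held 40.4, 32.2, 40.1 and 27.7 CPM. Both carcinoma lines lay above T1074 in every library, with PEO-4 164.5-fold higher (log2 fold change 7.34 ± 0.31, adjusted p = 5.95e-11) and SKOV-3 13.6-fold higher (3.74 ± 0.27, adjusted p = 1.93e-08). PEO-4 exceeded SKOV-3 by 12.1-fold (3.60 ± 0.25, adjusted p = 1.11e-08).

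ERBB2 (chr17:39687914-39730426), the partner receptor of the family, reached 5875 ± 1297 CPM in SKOV-3, against 259 ± 16.8 CPM in PEO-4 and 108 ± 18.4 CPM in T1074 (SD, n = 4). It was higher in both carcinoma lines than in T1074, by 1.26 ± 0.18 on the log2 scale in PEO-4 (adjusted p = 1.69e-05) and by 5.76 ± 0.22 in SKOV-3 (adjusted p = 2.97e-11).

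**Figure D2:**
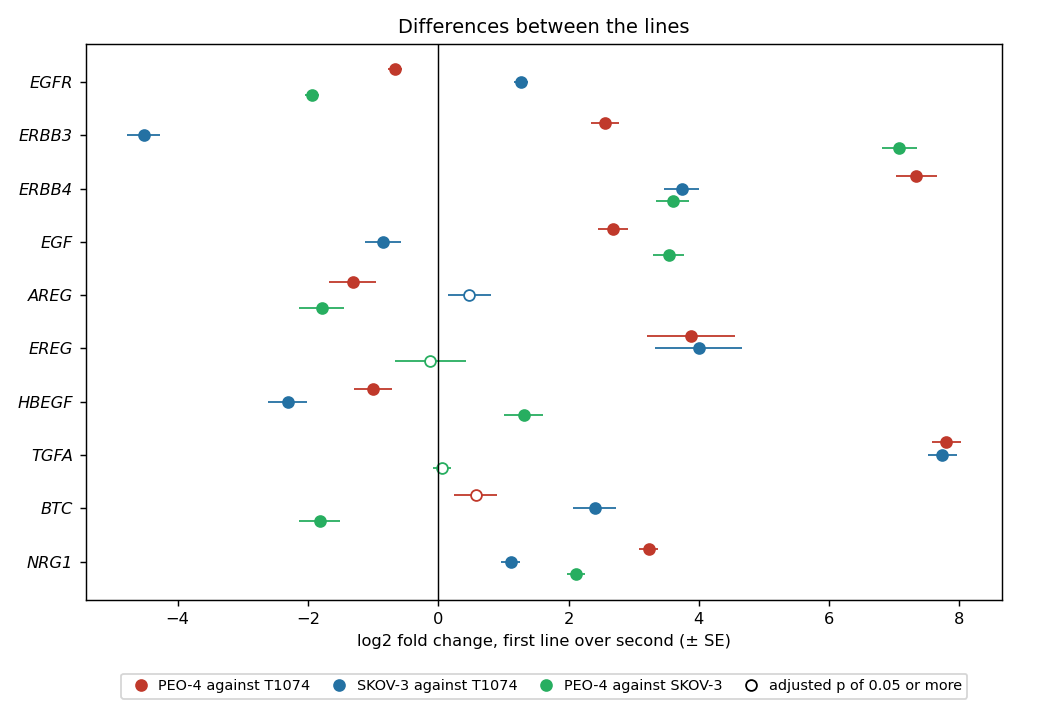
The horizontal axis gives the log2 fold change with its standard error and each row is 1 gene; colours mark the 3 comparisons, and open points have an adjusted p of 0.05 or more. EGFR and ERBB3 have filled points on opposite sides of 0 for PEO-4 and SKOV-3 against T1074, and the PEO-4 against SKOV-3 points of TGFA (0.06) and EREG (-0.12) are open.

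Among the ligands of EGFR alone, TGFA (chr2:70447284-70554193) showed the widest difference. It had 3, 7, 13 and 3 expected counts in the T1074 libraries, or 0.151, 0.160, 0.318 and 0.0746 CPM. In PEO-4 it was at 37.7, 43.9, 40.3 and 40.4 CPM, and in SKOV-3 at 35.9, 37.7, 41.6 and 40.5 CPM. The carcinoma lines overlapped each other and lay far above T1074. TGFA was upregulated in PEO-4 (log2 fold change 7.80 ± 0.22, adjusted p = 2.05e-12) and in SKOV-3 (7.74 ± 0.22, adjusted p = 2.75e-12), folds that rest on the few T1074 counts. The difference between the carcinoma lines was 0.06 ± 0.14 (adjusted p = 0.712).

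AREG, which codes for amphiregulin, was the ligand of EGFR that was lowest in PEO-4. Its T1074 values were 1.91, 1.26, 4.46 and 1.34 CPM, its PEO-4 values 0.732, 1.04, 1.01 and 0.843 CPM, and its SKOV-3 values 2.90, 2.88, 3.25 and 3.57 CPM. PEO-4 lay below every library of the other lines, whereas T1074 replicate 3 lay above all SKOV-3 libraries and the other T1074 libraries below them. AREG was 2.48-fold lower in PEO-4 than in T1074 (log2 fold change -1.31 ± 0.36, adjusted p = 0.00420) and 3.48-fold lower than in SKOV-3 (-1.79 ± 0.35, adjusted p = 0.000332). SKOV-3 against T1074 gave 0.48 ± 0.33 (adjusted p = 0.213). Without T1074 replicate 3 these values against T1074 became -0.69 in PEO-4 (adjusted p = 0.0112) and 1.11 in SKOV-3 (adjusted p = 0.000361), and over all alternatives the adjusted p of SKOV-3 against T1074 ran from 0.000361 to 0.477.

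EGF (chr4:109912883-110013766), which gives the family its name, was the lowest or next to lowest member in each line on the TPM scale. It had 5 to 10.0 expected counts in T1074 and 5 to 7 in SKOV-3. The T1074 libraries held 0.251, 0.229, 0.220 and 0.224 CPM, those of PEO-4 1.49, 1.54, 1.59 and 1.36 CPM, and those of SKOV-3 0.0975, 0.135, 0.128 and 0.143 CPM. PEO-4 was higher than T1074 by 6.49-fold (log2 fold change 2.69 ± 0.23, adjusted p = 9.58e-08) and than SKOV-3 by 11.9-fold (3.54 ± 0.24, adjusted p = 7.56e-09), with log2 values of 1.95 and 2.57 from length-scaled TPM. EGF passed the test as lower in SKOV-3 than in T1074 (-0.85 ± 0.28, adjusted p = 0.0361), but the adjusted p ran from 0.00887 to 0.374 over the alternatives and the call was lost when any 1 of the T1074 libraries was left out and with DESeq2 (adjusted p = 0.0888).

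The ligands shared by EGFR and ERBB4 did not move together. HBEGF (chr5:140332843-140346603), the heparin-binding ligand, was at 6.27, 6.87, 18.7 and 13.4 CPM in T1074, 4.77, 6.95, 5.57 and 5.41 CPM in PEO-4, and 2.34, 2.08, 2.38 and 2.36 CPM in SKOV-3. T1074 was the highest line, but PEO-4 replicate 2 lay above the lower pair of T1074 libraries. HBEGF was downregulated 4.95-fold in SKOV-3 (log2 fold change -2.31 ± 0.30, adjusted p = 8.68e-06) and 2.00-fold in PEO-4 (-1.0 ± 0.29, adjusted p = 0.00555) against T1074. It was 2.48-fold higher in PEO-4 than in SKOV-3 (1.31 ± 0.30, adjusted p = 0.00101).

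EREG, which codes for epiregulin, had 1, 12, 69 and 1 expected counts in the T1074 libraries. These were 0.0502, 0.275, 1.69 and 0.0249 CPM, against 4.66, 11.9, 10.7 and 5.34 CPM in PEO-4 and 8.07, 8.80, 8.01 and 10.6 CPM in SKOV-3. Every carcinoma library lay above T1074 replicate 3, the highest of that line. EREG was upregulated in PEO-4 (log2 fold change 3.88 ± 0.67, adjusted p = 0.000108) and in SKOV-3 (4.0 ± 0.67, adjusted p = 9.86e-05). Without T1074 replicate 3 the log2 values were 5.91 and 6.04, so that library sets the size of the difference. Between the carcinoma lines the difference was -0.12 ± 0.54 (adjusted p = 0.844). Within PEO-4, replicates 1 and 4 stood below replicates 2 and 3.

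BTC, which codes for betacellulin, was highest in SKOV-3. It was at 0.753, 2.06, 4.04 and 1.74 CPM in T1074, 2.93, 2.97, 3.95 and 3.35 CPM in PEO-4, and 10.6, 10.3, 14.3 and 11.3 CPM in SKOV-3. T1074 replicate 3 lay above all PEO-4 libraries, whereas SKOV-3 lay above every other library. BTC was 5.42-fold higher in SKOV-3 than in T1074 (log2 fold change 2.40 ± 0.33, adjusted p = 1.51e-05) and 3.53-fold higher than in PEO-4 (-1.82 ± 0.32 for PEO-4 against SKOV-3, adjusted p = 0.000118). PEO-4 against T1074 gave 0.58 ± 0.33 (adjusted p = 0.122). That value was 1.06 without T1074 replicate 3 (adjusted p = 0.00192) and 0.70 with the replicate number as a block (adjusted p = 0.0349), with a range of adjusted p from 0.00192 to 0.264 over the alternatives.

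NRG1 (chr8:31639222-32855666), the ligand of ERBB3 and ERBB4, was highest in PEO-4, the line that was also highest in those receptors. Its values were 6.37, 7.24, 9.41 and 7.73 CPM in T1074, 63.2, 82.9, 79.5 and 63.6 CPM in PEO-4, and 19.5, 15.6, 16.2 and 15.4 CPM in SKOV-3. The 3 lines did not overlap. NRG1 was upregulated 9.40-fold in PEO-4 (log2 fold change 3.23 ± 0.15, adjusted p = 1.6e-10) and 2.17-fold in SKOV-3 (1.11 ± 0.14, adjusted p = 7.24e-06) against T1074. PEO-4 exceeded SKOV-3 by 4.34-fold (2.12 ± 0.14, adjusted p = 6.67e-09).

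The same library of a line stood highest for several members. T1074 replicate 3 was the highest T1074 library for 6 of the 10 members, AREG, EREG, HBEGF, TGFA, BTC and NRG1, all of them ligands. It was the highest T1074 library for 28.2% of all genes tested. In PEO-4, replicates 2 and 3 both lay above replicates 1 and 4 for 6 members, ERBB3, EGF, AREG, EREG, HBEGF and NRG1, which held for 28.3% of all genes tested. These members were counted after their values were seen, and the counts are a description.

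To compare genes within a line, levels were put on the TPM scale, which divides by transcript length. In T1074 the order of mean TPM was EGFR (5.06 ± 0.682), ERBB3 (3.56 ± 1.18), HBEGF (2.33 ± 0.835), NRG1 (1.15 ± 0.211), AREG (0.958 ± 0.458), BTC (0.510 ± 0.251) and ERBB4 (0.198 ± 0.112), with EREG, EGF and TGFA at 0.0525 or less. Each neighbour in this order overlapped the next over the 4 libraries. In PEO-4 the order began with ERBB4 (13.6 ± 1.43 TPM), ERBB3 (11.8 ± 2.57), NRG1 (7.62 ± 1.92), TGFA (4.41 ± 0.659) and EGFR (2.05 ± 0.197). ERBB4, ERBB3 and NRG1 overlapped in turn, whereas NRG1 and TGFA, TGFA and EGFR, and EGFR and HBEGF did not. HBEGF (0.760 ± 0.185), EREG (0.595 ± 0.308) and BTC (0.513 ± 0.114) overlapped in turn, and AREG (0.255 ± 0.0686) and EGF (0.105 ± 0.0173) stood apart below them.

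In SKOV-3 the order was led by EGFR (8.88 ± 1.86 TPM) and TGFA (4.90 ± 0.470), a receptor and its ligand, each apart from the next gene. BTC (1.87 ± 0.523), NRG1 (1.61 ± 0.206), ERBB4 (1.34 ± 0.372) and AREG (0.985 ± 0.156) overlapped in turn. EREG (0.653 ± 0.106), HBEGF (0.340 ± 0.0542), ERBB3 (0.203 ± 0.0369) and EGF (0.02 ± 0.0141) followed without overlap. The summed TPM of the 3 receptors was highest in PEO-4 at 27.4 ± 3.95, against 8.81 ± 1.71 in T1074 and 10.4 ± 2.19 in SKOV-3. That of the 7 ligands was 14.3 ± 3.12 in PEO-4, 5.07 ± 1.42 in T1074 and 10.4 ± 1.299 in SKOV-3 (SD, n = 4), and neither sum was tested. ERBB2 lay above all of them in SKOV-3 at 468 ± 113 TPM, and was at 17.9 ± 2.62 TPM in PEO-4 and 13.5 ± 3.82 TPM in T1074. The deposited TPM carries no TMM scaling, so TPM of different lines is not on the scale of the CPM folds above. BTC was at 0.513 TPM in PEO-4 and 0.510 TPM in T1074, but at 3.30 and 2.15 CPM.

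**Figure D3:**
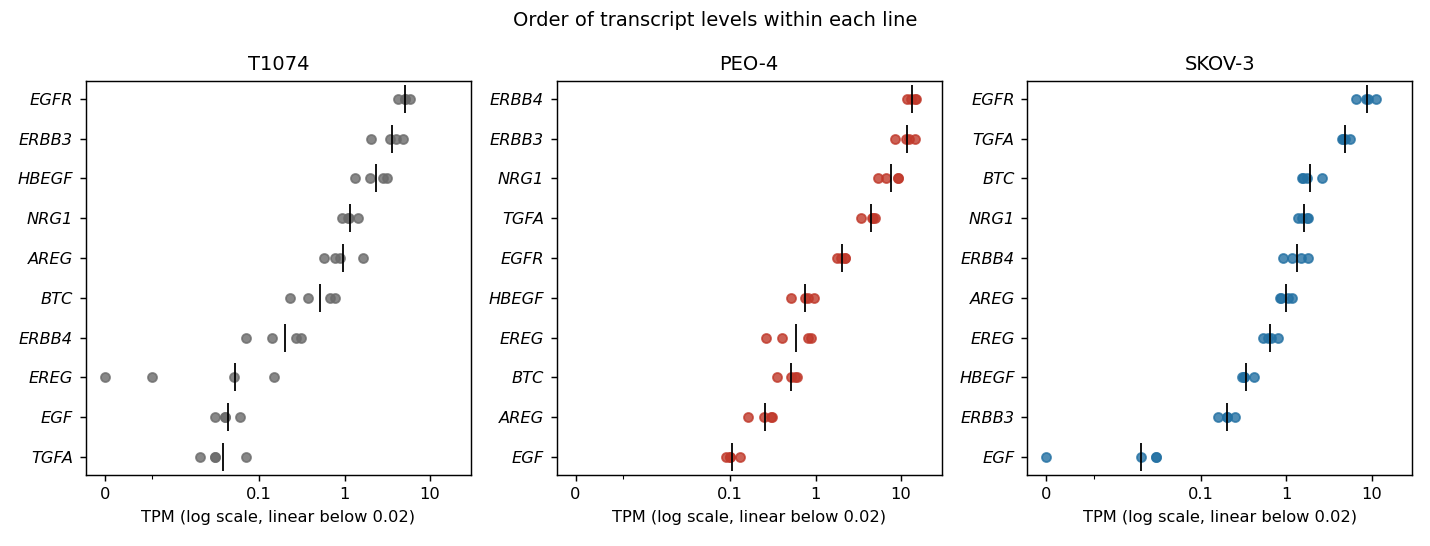
Each panel is 1 line and each row 1 gene, ordered by mean TPM; points are the 4 libraries and the black tick their mean, on an axis that is linear below 0.02 TPM and logarithmic above. EGFR leads T1074 (5.06 TPM) and SKOV-3 (8.88 TPM), ERBB4 leads PEO-4 (13.6 TPM), and TGFA is last in T1074 and next after EGFR in SKOV-3.

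The 10 members have 122 transcripts in the files, of which 42 passed the filter. In PEO-4 against T1074, 30 of the 42 passed the test, 27 as higher. Of the 76043 transcripts tested 41.9% passed, 16419 of them as higher. In SKOV-3 against T1074, 23 passed, 14 as higher, beside 36.2% of all transcripts, 14342 of them as higher. In PEO-4 against SKOV-3, 34 passed, 30 as higher in PEO-4, beside 45.0% of all transcripts, 17392 of them as higher. Transcripts of 1 gene share its level, and ERBB3 and NRG1 gave 11 each of the 42 and ERBB4 5, so these are not separate results. TGFA-202, at 0 in all T1074 libraries, passed the filter through the carcinoma lines alone. So did TGFA-203, at 0.0258 CPM or less in T1074, and ERBB4-202, at 0 in most T1074 libraries. The genes TGFA and EREG, with few T1074 counts, also needed the carcinoma lines to pass. For all of these, the filter favoured a call as higher in the lines that passed it. RSEM assigns reads that fit several transcripts by estimate, which makes these values less certain than the gene's.

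ERBB3-201, with a coding sequence of 1342 codons, held 57.2% of the summed ERBB3 TPM in PEO-4, 52.3% in T1074 and 17.3% in SKOV-3. ERBB3-202, a short transcript of 183 codons that holds only a part of the extracellular region, held 8.5%, 21.4% and 28.4% in the same order. Of the TPM of these transcripts together, ERBB3-202 took 44.6%, 23.3%, 36.0% and 23.2% in the T1074 libraries. The range was 11.9% to 14.3% over the PEO-4 libraries but 55.6% to 100.0% over those of SKOV-3. The PEO-4 libraries were all below those of the other lines, and the SKOV-3 shares rest on 6 to 49 expected counts. ERBB3-201 was higher in PEO-4 than in T1074 by 2.64 ± 0.55 on the log2 scale (adjusted p = 0.00222) and ERBB3-202 by 1.12 ± 0.30 (adjusted p = 0.00983). The retained intron transcript ERBB3-205 rose in PEO-4 as well (3.13 ± 0.81, adjusted p = 0.00853).

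ERBB4-204, the form without the 48-base exon shown above, held 40.4% of the ERBB4 TPM in PEO-4 and 43.6% in SKOV-3. ERBB4-202, the form with that exon, held 24.6% and 18.9%. Of the TPM of both forms, ERBB4-202 took 41.4%, 36.2%, 35.5% and 38.8% in the PEO-4 libraries and 23.3%, 30.1%, 38.4% and 25.4% in SKOV-3, so the lines overlapped. In T1074 the share was 47.6% in replicate 2 and listed at 0 in the other libraries, with 38 to 182 expected counts in all. Both forms were higher in PEO-4 than in T1074, ERBB4-204 by 7.13 ± 0.22 (adjusted p = 3.9e-09) and ERBB4-202 by 8.02 ± 1.10 on the log2 scale (adjusted p = 0.000119). The retained intron transcript ERBB4-208 held 21.9% of the TPM in PEO-4 and 32.4% in SKOV-3.

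EGFR-201, with 1210 codons, held 70.8% to 77.8% of the EGFR TPM in the means of the 3 lines. EGFR-202, whose 628 codons end before the membrane-spanning segment, held 14.9% in PEO-4, 6.2% in T1074 and 14.2% in SKOV-3. In SKOV-3 it was higher than in T1074 (log2 fold change 2.52 ± 0.50, adjusted p = 0.00201), as was EGFR-201 (1.41 ± 0.11, adjusted p = 2.2e-06). PEO-4 against T1074 gave 0.69 ± 0.48 for EGFR-202 (adjusted p = 0.281) and -0.63 ± 0.11 for EGFR-201 (adjusted p = 0.000554).

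TGFA-201, the form with the 3 additional bases, held 55.6% of the TGFA TPM in PEO-4 and 56.8% in SKOV-3. TGFA-203, without them, held 20.1% and 20.0%, and the shorter TGFA-202 held 15.3% and 21.5%. Of the TPM of TGFA-201 and TGFA-203, the share of TGFA-201 was 66.5%, 73.9%, 78.0% and 73.5% in PEO-4 and 67.3%, 72.9%, 79.6% and 74.2% in SKOV-3. The ranges of the carcinoma lines overlapped, and the shares were not tested. TGFA-201 and TGFA-203 also differ in length, at 4117 and 1225 bases, so these shares do not measure the 3 bases alone. TGFA-201, TGFA-202 and TGFA-203 each gave an adjusted p of 0.243 or more in PEO-4 against SKOV-3.

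NRG1 transcripts are grouped by their first exon. The 12 transcripts that start at chr8:32548210-32548730, the type I group with an immunoglobulin-like domain, held 90.2% to 93.4% of the NRG1 TPM in the means of the 3 lines. The 6 transcripts that start at chr8:32646967-32647962, where the membrane-bound type III form begins, held 1.8% to 3.0%. NRG1 transcripts also differ in the exon that completes the EGF-like domain. Those with the 68-base exon of the alpha form held 18.7% ± 1.6 of the TPM in PEO-4, 31.0% ± 7.5 in T1074 and 27.8% ± 2.7 in SKOV-3 (SD, n = 4). Those with the 59-base beta exon held 28.6% ± 1.5, 42.0% ± 6.0 and 45.5% ± 1.3 in that order, and those that end after 91 coding bases of the beta exon held 44.2% ± 3.3, 19.0% ± 8.9 and 20.2% ± 4.5. This last share was 40.3% to 47.9% in the PEO-4 libraries and at most 32.1% in those of the other lines. NRG1-223, of 241 codons, made up most of it, and was higher in PEO-4 than in SKOV-3 by 3.47 ± 0.59 on the log2 scale (adjusted p = 0.000575), where NRG1-202, of 637 codons, was higher by 1.71 ± 0.14 (adjusted p = 1.87e-06) and NRG1-203 by 1.63 ± 0.27 (adjusted p = 0.000471).

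**Figure D4:**
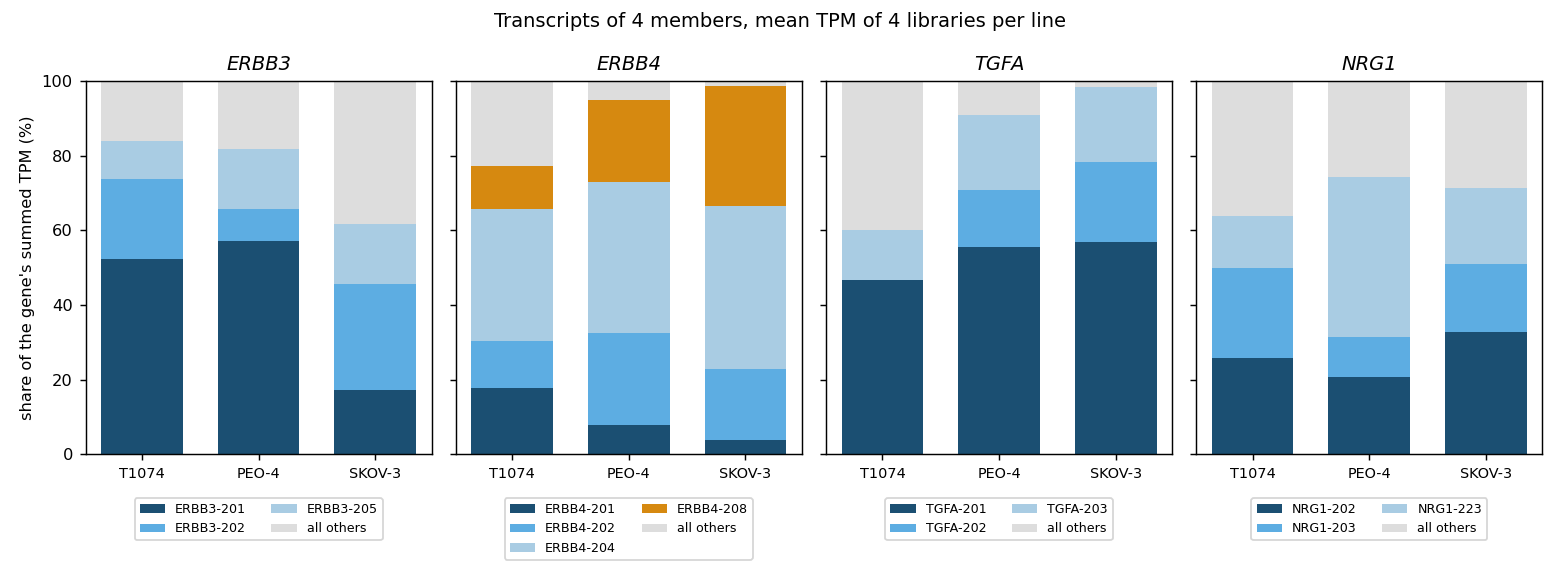
Stacked bars give the share of a gene's summed TPM (mean of 4 libraries, in percent) held by each transcript with at least 10% in 1 line, for ERBB3, ERBB4, TGFA and NRG1. ERBB3-201 holds 57.2% in PEO-4 and 17.3% in SKOV-3, NRG1-223 holds 43.1% in PEO-4 and 20.4% in SKOV-3, TGFA-201 holds 55.6% and 56.8% in the carcinoma lines, while the T1074 bar of TGFA rests on 3 to 13 counts per library.

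For the remaining ligands 1 or 2 transcripts held most of the TPM. AREG-201 held 88.2% to 97.5% in the means of the 3 lines, HBEGF-201 92.8% to 97.3% and EREG-201 81.0% to 95.4%. BTC-201 held 65.4% to 77.7% and the shorter BTC-202 the rest. EGF-206 was the EGF transcript that passed the filter, and it was higher in PEO-4 than in T1074 (log2 fold change 3.96 ± 1.14, adjusted p = 0.0154).

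The share of a gene's expected count that lay in protein-coding transcripts was tested where every library had at least 50 counts, with a two-sided exact permutation test over libraries. Of 16 tests, 0 passed the adjusted threshold, with the smallest adjusted p at 0.229 and the smallest p at 0.0286, which is the smallest that 4 against 4 libraries allow, so the design left little room to pass after adjustment. That smallest p was reached by ERBB4, with 93.4% ± 0.7 in PEO-4 and 90.4% ± 2.7 in SKOV-3, and by EREG, with 94.9% ± 1.9 and 99.4% ± 0.7.

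Other genes of the pathway were taken from 4 lists of 35 genes in all, of which 34 passed the filter. In PEO-4 against T1074, 13 rose, 14 fell and 7 did not pass, and in SKOV-3 against T1074 13 were higher, 10 lower and 11 did not pass. These shares stand beside the 74.1% and 67.8% of all genes. In PEO-4 against SKOV-3, 10 were higher and 15 lower, beside 75.2%.

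Of the other ligands, NRG4, which binds ERBB4, was 3.96-fold higher in PEO-4 than in T1074 (log2 fold change 2.02 ± 0.28, adjusted p = 1.51e-05), at 1.72 ± 0.186 against 0.436 ± 0.173 CPM. In SKOV-3 it was at 0.638 ± 0.108 CPM (0.59 ± 0.29, adjusted p = 0.0866), a difference that passed without T1074 replicate 1 (0.79, adjusted p = 0.0302). NRG3, another ERBB4 ligand, was at 0.707 ± 0.184 CPM in PEO-4 and 0.0349 ± 0.0544 CPM in T1074, and at 0 in all SKOV-3 libraries. PEO-4 was at least 11.7-fold higher than SKOV-3 against a floor of 3 counts per library. NRG3 passed the filter through PEO-4 alone, which favoured a call as higher there. The test also called NRG3 lower in SKOV-3 than in T1074 (adjusted p = 0.0275), a call that was lost without T1074 replicate 2 (adjusted p = 0.183, range over the alternatives 0.0118 to 0.183). NRG2 was highest in SKOV-3 at 1.94 ± 0.213 CPM, against 1.48 ± 0.140 CPM in PEO-4 and 1.21 ± 0.355 CPM in T1074, and passed as higher in SKOV-3 than in T1074 (0.65 ± 0.22, adjusted p = 0.0189), a call lost with scaling by library size alone (adjusted p = 0.144) and without SKOV-3 replicate 2 (adjusted p = 0.0550), with a range over the alternatives of 0.00270 to 0.144. EPGN, the fourth gene of the chromosome 4 cluster, was at 0.164 CPM or less in every library and was not tested.

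Of 8 genes of ligand shedding, 5 were higher, 2 lower and 1 did not pass in PEO-4 against T1074, and in SKOV-3 3 were higher, 2 lower and 3 did not pass. ADAM9, a metalloprotease, was lower in PEO-4 (75.2 ± 6.59 CPM) and in SKOV-3 (238.5 ± 11.8 CPM) than in T1074 (435 ± 148 CPM), with log2 fold changes of -2.53 ± 0.21 (adjusted p = 4.99e-08) and -0.87 ± 0.20 (adjusted p = 0.0012). ADAM12, known to release HBEGF, was 22.7-fold higher in SKOV-3 than in T1074 (4.60 ± 0.43, adjusted p = 2.93e-07), at 19.5 ± 4.14 against 0.859 ± 0.434 CPM. In PEO-4 the difference from T1074 was 0.72 ± 0.43 (adjusted p = 0.147), and it passed without T1074 replicate 1 (1.04, adjusted p = 0.0478), PEO-4 replicate 1 (1.06, adjusted p = 0.0326) or PEO-4 replicate 4 (1.07, adjusted p = 0.0348). RHBDF2, a rhomboid-like protein that guides the sheddase ADAM17 to the surface, was 3.34-fold higher in PEO-4 (1.74 ± 0.17, adjusted p = 3.81e-07). In SKOV-3 it gave -0.26 ± 0.17 (adjusted p = 0.188), or -0.38 without T1074 replicate 3 (adjusted p = 0.0313).

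Of 11 genes of feedback and turnover, 2 were higher, 6 lower and 3 did not pass in PEO-4, and 5 were higher, 3 lower and 3 did not pass in SKOV-3. CBLC, an epithelial ubiquitin ligase of the CBL family, was at 20.3, 25.6, 20.5 and 19.3 CPM in PEO-4, at 0.0249 CPM or less in T1074 and at 0 in all SKOV-3 libraries, which makes PEO-4 at least 354-fold higher than SKOV-3. CBLC also passed the filter through PEO-4 alone. SH3KBP1, an adaptor that joins CBL to receptor endocytosis, was 10.3-fold lower in PEO-4 than in T1074 (-3.36 ± 0.11, adjusted p = 7.06e-12) and 1.45-fold higher in SKOV-3 (0.54 ± 0.10, adjusted p = 0.000233). HGS, which sorts receptors for breakdown in the lysosome, was higher in both carcinoma lines, by 1.44 ± 0.13 in PEO-4 (adjusted p = 1.81e-07) and 0.92 ± 0.13 in SKOV-3 (adjusted p = 2.08e-05).

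Of 12 adaptors, 4 were higher, 6 lower and 2 did not pass in PEO-4, and 4 were higher, 4 lower and 4 did not pass in SKOV-3. GRB7, an adaptor whose gene lies close to ERBB2, was 39.7-fold higher in PEO-4 (log2 fold change 5.26 ± 0.23, adjusted p = 1.06e-10) and 24.3-fold higher in SKOV-3 (4.56 ± 0.23, adjusted p = 5e-10) than in T1074. EPS8, a substrate of EGFR, was lower in both, by -1.76 ± 0.11 in PEO-4 (adjusted p = 3.63e-09) and -0.95 ± 0.11 in SKOV-3 (adjusted p = 2.32e-06). VAV2, a guanine nucleotide exchange factor, went with EGFR in direction, lower in PEO-4 (-0.88 ± 0.09, adjusted p = 3.88e-07) and higher in SKOV-3 (1.28 ± 0.09, adjusted p = 1.11e-08).

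**Figure D5:**
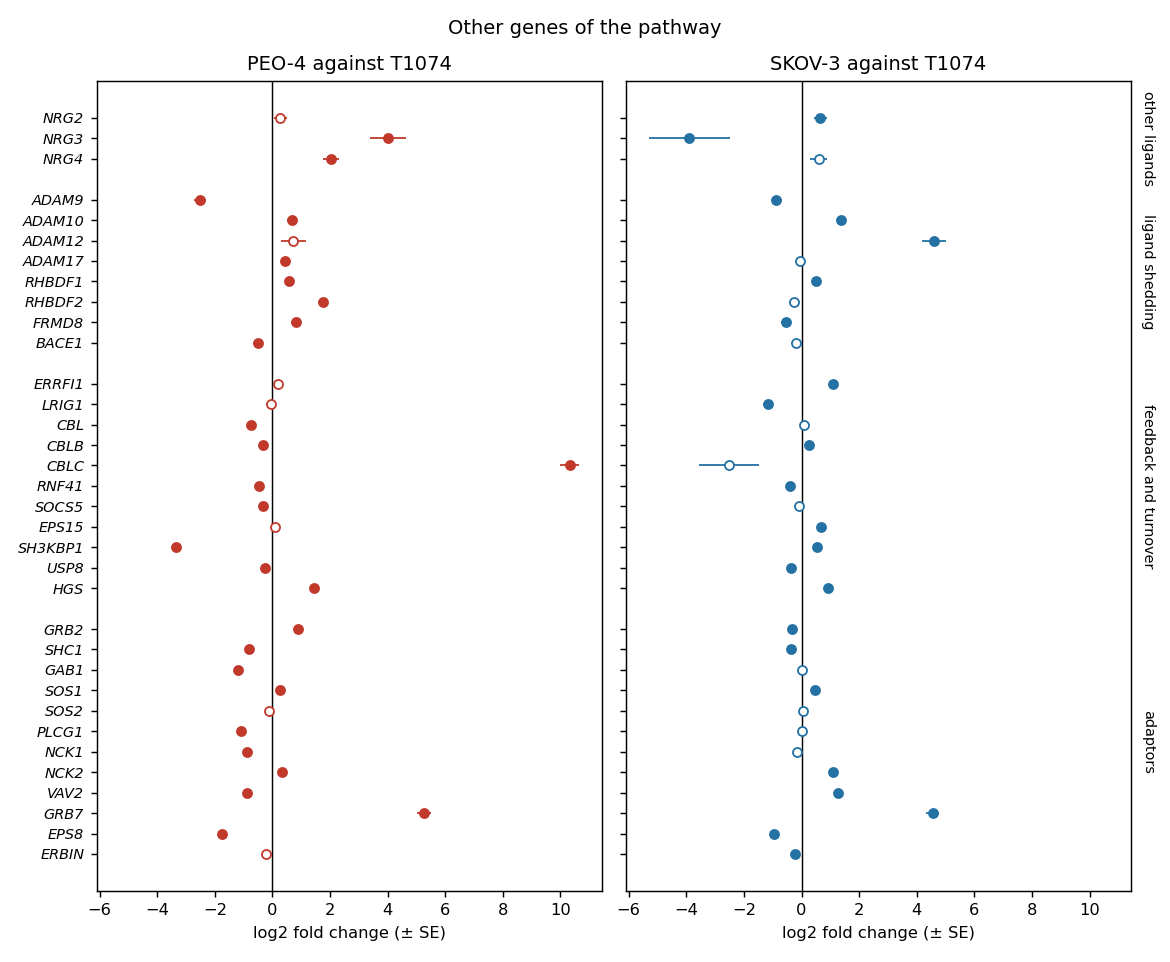
Each row is 1 gene of the 4 pathway lists, with the log2 fold change against T1074 and its standard error, for PEO-4 on the left and SKOV-3 on the right; filled points have an adjusted p under 0.05. GRB7 is far to the right in both panels (5.26 and 4.56), SH3KBP1 is at -3.36 and 0.54, and the fitted values of NRG3 and CBLC in SKOV-3, where both genes were at 0 in all libraries, depend on the prior count.

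The genes with the pattern most like that of a member were found by the correlation of log2 CPM over the 12 libraries among 13174 protein-coding genes with a mean of at least 1 CPM. For EGFR they were AGPS (r = 0.995), CAV2 (r = 0.990) and ITCH (r = 0.990). For ERBB3 they were SECTM1 (r = 0.998), CTDSPL (r = 0.996) and PNMA8A (r = 0.995), which was at 35.8 CPM in PEO-4 and 0 in SKOV-3. For NRG1, taken as the ligand with the highest mean TPM over all 12 libraries although TGFA was higher in SKOV-3 and HBEGF in T1074, they were ARHGAP27 (r = 0.998), ADGRF1 (r = 0.997) and SCEL (r = 0.996). These correlations describe 3 lines of 4 libraries each, so they mainly restate the order of the lines and their spacing.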

How the data were processed

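Total RNA of T1074, PEO-4 and SKOV-3 was analysed, 4 libraries per line. The authors depleted rRNA, made directional libraries, read paired ends, trimmed with Trimmomatic 0.39, aligned to hg38 (Gencode 39) with STAR 2.7.3a and quantified transcripts with RSEM 1.3.1. RSEM's strand setting is not given in the sources used here. The labels name the molecule as protein, but the values are those of RNA-seq. The expected count that the authors deposited is RSEM's unnormalized estimate of fragments per transcript. The TPM that the authors deposited is scaled by effective length, also deposited, to a fixed sum, with 2 decimals. Here expected counts were summed by gene and rounded. Of 61533 gene IDs, 61369 matched GENCODE 44, which gave symbols, types and coordinates. Coding lengths are given only for transcripts whose length there equals the deposited one. Overlapping genes held at most 0.169% of a member's count.

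Each gene and each transcript went through edgeR 4.0.16 (R 4.3.3), quasi-likelihood F-test, in 1 fit of 12 libraries, after filterByExpr and TMM, with Benjamini-Hochberg adjustment over all features; the standard error is the log2 fold change over the square root of F. The method was tested on simulated data in which few genes changed and only in PEO-4. In the real data most genes passed, a case which that simulation does not cover. The 18 pairs of replicates within lines differed by more than sampling noise (chi-square per degree of freedom 23.2 to 299.8). Genes outside the family were named by rule: all other ligands, and of each further list the 3 largest changes against T1074 among those past the threshold with no overlap between lines; transcripts were named from 10% of the gene's TPM. The floor of 3 counts covers counting error alone, because the reads carry no molecular identifiers. The alternatives were other scalings, DESeq2 1.42.0, a replicate block, pairwise fits, other filters and thresholds, length-scaled TPM and leaving out each library. The members and lists were chosen with earlier results of these data known.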

Additional observations from a re-analysis of the deposited data

Results flagged for a closer look

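Over 70 groups of 4 libraries, the libraries of a named gene in 1 line, 4 held a library far from the others (a gap past the critical share of the range in Dixon's test), and chance gives about 1 in 20. ERBB3 in T1074 had replicate 1 at 14.1 CPM against 30.8 to 33.2, a gap of 0.873 of the range, and ADAM12 in T1074 had the same library at 1.51 CPM against 0.573 to 0.696, a gap of 0.868. That library had the lowest depth, 19780836 counts. EREG in T1074 had replicate 3 at 1.69 CPM against 0.0249 to 0.275, a gap of 0.85. HBEGF in SKOV-3 had replicate 2 at 2.08 CPM against 2.34 to 2.38, a gap of 0.876 within a narrow range.

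Of the 24 named genes, EGFR, ERBB3, EGF, NRG3, SH3KBP1 and VAV2 were called in opposite directions in PEO-4 and SKOV-3 against T1074, and passed the test of PEO-4 against SKOV-3. The log2 difference between the carcinoma lines was 7.08 for ERBB3 and -1.94 for EGFR, and -3.90 for SH3KBP1 and -2.16 for VAV2. It was 3.54 for EGF, whose call in SKOV-3 changed with the processing. For NRG3 the fitted difference was 7.92, which depends on the prior count because all SKOV-3 libraries were at 0. The NRG3 libraries of SKOV-3 and T1074 overlapped. Its call as lower in SKOV-3 than in T1074 was lost without T1074 replicate 2 (adjusted p = 0.183) and with the replicate block (adjusted p = 0.0597).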

How the results depend on the processing

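Over 675 alternative values of the 30 log2 fold changes of the members, 652 kept their direction and side of the threshold, 16 lost the call, 3 gained it and 4 changed sign. Of the 16 lost calls, 15 were EGF in SKOV-3 against T1074 and 1 was EGFR in PEO-4 against T1074, whose -0.66 lies under the absolute log2 fold change of 1 asked there. The 3 gained calls were AREG and BTC without T1074 replicate 3 and BTC with the block. The sign changed for EREG in PEO-4 against SKOV-3, near 0 in every case, at 0.01 with protein-coding genes only, 0.05 from length-scaled TPM, and 0.09 and 0.12 without PEO-4 replicate 4 and 1, in a range of -0.31 to 0.12 over the libraries left out in turn. For the other named genes 861 of 886 values kept direction and call, 15 lost and 10 gained it.

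With at least 10 CPM asked in at least 4 libraries, 5 members (EGFR, ERBB3, ERBB4, TGFA and NRG1) and 10978 genes were left to test. All 5 passed in each comparison with T1074, 1 of them lower in each, and 4 in PEO-4 against SKOV-3, 3 higher and 1 lower. Over all genes 8605 (78.4%), 8096 (73.7%) and 8601 (78.3%) passed in PEO-4 against T1074, SKOV-3 against T1074 and PEO-4 against SKOV-3. The usual filter was also combined with a log2 change of 1 or more in either direction. Of 19898 genes, 9835 (49.4%), 8265 (41.5%) and 10129 (50.9%) then passed in the 3 comparisons in the same order. Of the 34 pathway genes tested, 11, 8 and 13 passed. Scaling by library size alone moved the median log2 fold change of all genes by -0.16 in PEO-4 and -0.20 in SKOV-3 against T1074, and by 0.04 in PEO-4 against SKOV-3.

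Libraries with the same replicate number did not deviate together, with correlations of -0.079 to 0.069, so the numbers were not taken as pairs. With the replicate block 10, 9 and 8 members passed in the 3 comparisons, and 14413, 13094 and 14658 of all genes. Depth limits EGF in T1074 and SKOV-3, TGFA and EREG in T1074, ERBB3 transcripts in SKOV-3 and ERBB4 and NRG1 transcripts in T1074, all of which rest on few counts. The order of levels was the same for 10 of 10 members in each line when made from counts per kb. The lengths used there were weighted by TPM, so within a library these values restate the TPM order. They are not a separate check of it.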
